A study of Mus musculus with 4 samples.

Results

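Collagen genes were described in sorted palatal mesenchyme of 4 mouse embryos, 2 of which lacked Foxf2, a forkhead transcription factor needed for palate closure. The members were all genes whose symbol has the form Col, a type number, the letter a and a chain number. This rule took 47 transcript entries, which belong to 42 genes of 22096 gene symbols in the tables. Of the 42 genes, 26 had a mean of at least 1 FPKM (fragments per kilobase of transcript, scaled to the number of mapped fragments) over all embryos and were tested, and 16 fell below that level. A pair of family members stood outside the rule or the tables. Col26a1 is listed under its older symbol Emid2, and Col6a3 was not analysed here.

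The embryos were littermates on a mixed background at E13.5, when the palatal shelves grow downwards beside the tongue, and 1 library was made from each. The controls were 1 Foxf2+/+Osr2RFP/+ embryo (the wild type for Foxf2) and 1 Foxf2+/-Osr2RFP/+ embryo (the heterozygote), and the other group was 2 Foxf2-/-Osr2RFP/+ embryos (the mutants). All 4 embryos therefore carried 1 Osr2RFP allele, whose red fluorescent protein marks Osr2-expressing mesenchyme, and the RFP-positive cells of microdissected, trypsinised palatal shelves were sorted. The Foxf2 deletion was constitutive, so tissues outside the palate also lacked the gene, and each control genotype was a single embryo with no replicate check. Foxf2 itself was 85.4 FPKM in the wild type, 45.1 in the heterozygote, and 1.41 and 2.28 in the mutants, which matched the labels (log2 fold change -5.03, limma adjusted p = 0.00533). The number of reads per library is unknown, but the ratio of coverage to FPKM put the other 3 libraries at 1.02 to 1.19 times the depth of the Foxf2+/+ library. Summed FPKM of the palatal mesenchyme markers was 739 to 905 and overlapped between the groups. Of 9 markers, 5 lay below both controls in both mutants, against 35.8% of all tested genes, and 1 lay above, against 9.89%. Epithelial markers summed to 7.82 and 8.53 in the controls against 8.63 and 9.75 in the mutants. Endothelial markers summed to 0.480 and 0.936 against 1.02 and 1.87, with Cldn5 at 0, and skeletal muscle markers to 1.28 to 2.45, with Myog and Myf6 at 0. Red cell markers ranged from 145.5 in the wild type through 804 and 770.2 to 2173 in mutant replicate 2, and the part of these cells in the values below was not tested.

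Collagens are secreted proteins of 3 chains wound into a triple helix, in which glycine opens each triplet of residues. Fibrillar collagens form the cables of connective tissue, with types I and III as bulk components and types V and XI as regulators of fibril diameter. The FACIT collagens sit on fibril surfaces, type IV collagens form the basement membrane network, type VI forms beaded filaments around cells, type VIII forms short-chain lattices, and a few collagens span the plasma membrane. In the growing palate the mesenchyme lays down a matrix rich in fibrillar collagen and hyaluronan.

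The glycine repeat is visible in the coding exons, and the following internal exons of 54 bases are shown because they come from a pair of chains whose ratio did not overlap between the groups (Col1a1 and Col3a1) and from the collagens with the largest fitted differences (Col12a1, Col25a1 and Col9a2). Each is given 5′ to 3′ on the coding strand, from the mouse assembly NCBIM37 (mm9), with the glycine codons (GGN) that open each triplet of residues in capitals.
Col1a1, coding exon 8, chr11:94801218-94801271, plus strand: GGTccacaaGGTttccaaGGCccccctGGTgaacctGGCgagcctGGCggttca
Col3a1, coding exon 6, chr1:45382205-45382258, plus strand: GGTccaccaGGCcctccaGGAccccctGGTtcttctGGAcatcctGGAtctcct
Col12a1, coding exon 54, chr9:79462156-79462209, minus strand: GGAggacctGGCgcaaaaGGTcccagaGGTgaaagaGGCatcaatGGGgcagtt
Col25a1, coding exon 13, chr3:130220602-130220655, plus strand: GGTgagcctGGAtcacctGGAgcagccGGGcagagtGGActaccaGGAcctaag
Col9a2, coding exon 5, chr4:120716301-120716354, plus strand: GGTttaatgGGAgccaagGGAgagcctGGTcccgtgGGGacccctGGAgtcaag
Every ninth base of these exons starts a glycine codon, so an exon of this length holds whole repeats. Among 627 internal coding exons of the 11 fibrillar genes, 83.9% had a length that is a multiple of 9 and 48.6% were exactly 54 bases long. Over all 42 collagen genes these shares were 64.2% and 25.0% of 1867 exons, against 13.7% and 0.404% of 154080 exons in other protein-coding genes. The longest unbroken glycine repeat, counted in triplets of residues in the annotated coding sequence, differed widely between chains. It was 344 in Col3a1, 338 in Col1a1 and 339 in Col1a2, but 113 in Col9a1, Col9a2 and Col9a3, 87 in Col6a1 and Col6a2, 40 in Col25a1, and 32 in Col12a1 and Col14a1.

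Among the collagen genes of the mesenchyme, those of the fibrillar types I and III had the highest FPKM. Summed over the 42 genes, collagen FPKM was 1579 in the wild type, 1294 in the heterozygote, and 1265 and 1417 in the mutants. As a share of all FPKM it was 0.601%, 0.505%, 0.532% and 0.552%. Fewer cells of a type and less RNA per cell cannot be told apart in such bulk values. For the share, the controls spanned both mutant values, so no difference in it was seen beyond the spread between embryos (0.553% ± 0.0682 in controls and 0.542% ± 0.0137 in Foxf2-/-, mean ± SD, n = 2 each). In summed FPKM mutant replicate 1 lay below both controls and mutant replicate 2 between them, so the groups overlapped. Fibrillar genes took 74.3% and 72.9% of the collagen total in the controls against 73.7% and 73.8% in the mutants. Col1a1, Col1a2 and Col3a1 alone took 62.6% to 64.7%.

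**Figure D1:**
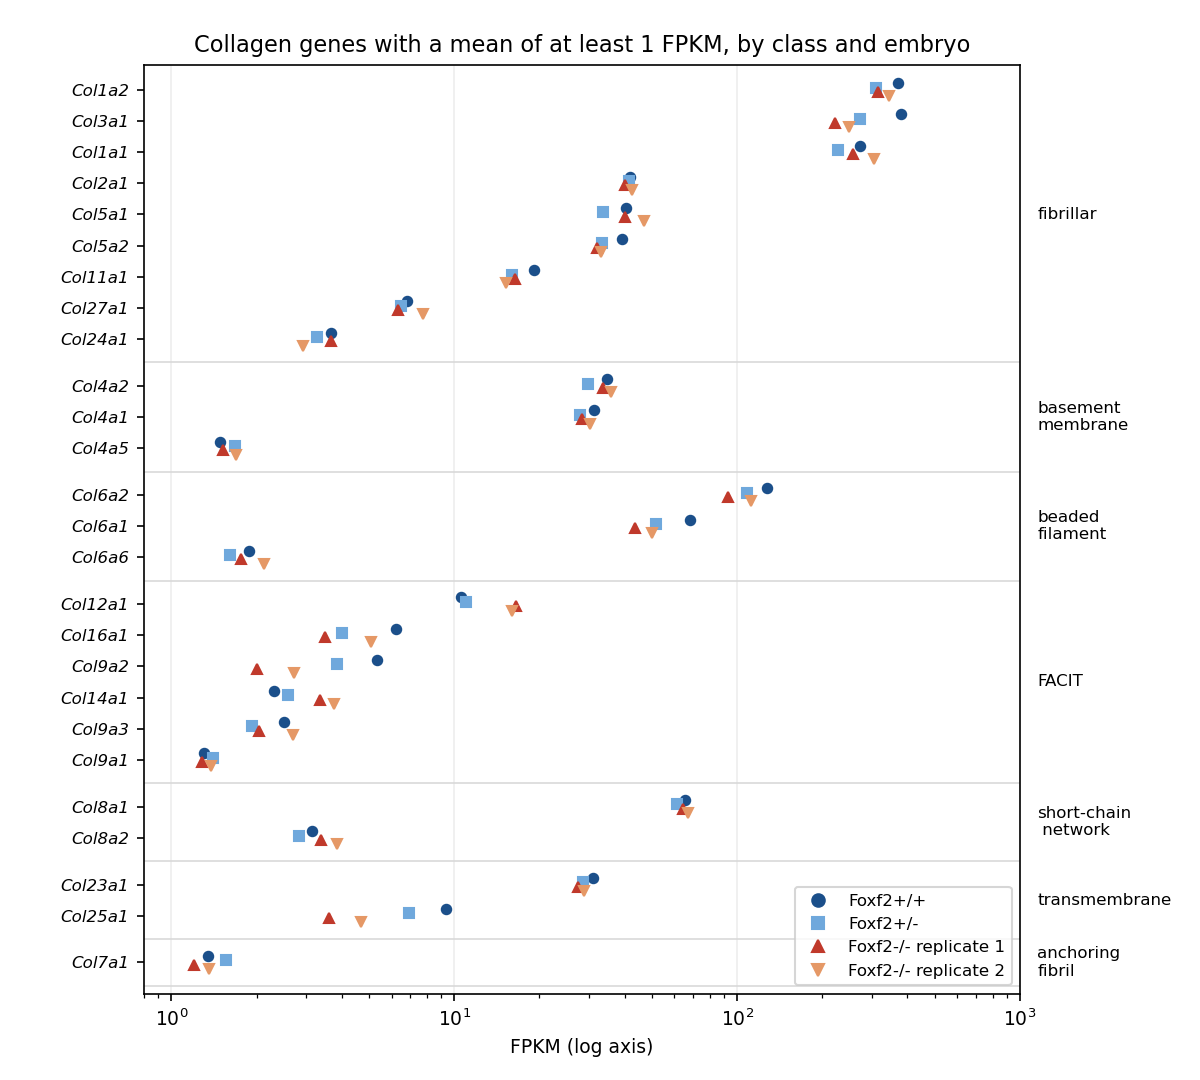
FPKM of the 26 tested collagen genes (log axis) in each of the 4 embryos, grouped by class; each point is 1 embryo. The levels run from about 1 FPKM for Col9a1 and Col7a1 to over 200 FPKM for Col1a1, Col1a2 and Col3a1, and for most genes the 4 points lie close together.

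Behind the fibrillar genes, beaded filament genes were the next class even without Col6a3, which is missing from this class and from the total behind every share, with 12.6% of collagen FPKM in each control and 11.0% and 11.6% in the mutants. Short-chain genes took 4.35% and 4.97% in the controls and 5.36% and 5.01% in Foxf2-/-, and basement membrane genes 4.27% and 4.60% against 5.04% and 4.79%. Transmembrane collagens took 2.59% and 2.79% against 2.50% and 2.41%, and FACIT collagens 1.80% and 1.93% against 2.29% and 2.25%. Among these classes, the mutants thus lay below both controls in the shares of beaded filament and transmembrane collagens. The mutants lay above both in the shares of short-chain, basement membrane and FACIT collagens. Shares of the same total depend on each other, so these are not separate observations. How often the shares of comparable sets of other genes separate in this way was not computed. In summed FPKM the mutants lay below both controls for transmembrane collagens (41.0 and 36.0 against 31.7 and 34.1) and above both for FACIT collagens (28.4 and 24.9 against 28.9 and 31.8). For FACIT collagens the wild type value of 28.4 lay just under the lower mutant value of 28.9. The sums do not describe all members of either class. Of 2 tested transmembrane genes, Col25a1 was lower in both mutants (9.35 and 6.91 against 3.62 and 4.70) and Col23a1 overlapped. Of 6 tested FACIT genes, Col12a1 was higher in both (10.6 and 11.0 against 16.5 and 16.0), as was Col14a1. Col9a2 was lower, and the others overlapped. The summed FPKM of the beaded filament, short-chain and basement membrane classes overlapped, so these separated only as shares of a total that itself varied. The fibrillar share overlapped between the groups. Multiplexins (Col15a1 and Col18a1) and the remaining class of Col7a1 and Col28a1 each made up at most 0.126% of collagen FPKM. With 2 embryos against 2, an exact permutation test over embryos cannot give a p below 0.333 for any single such value.

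**Figure D2:**
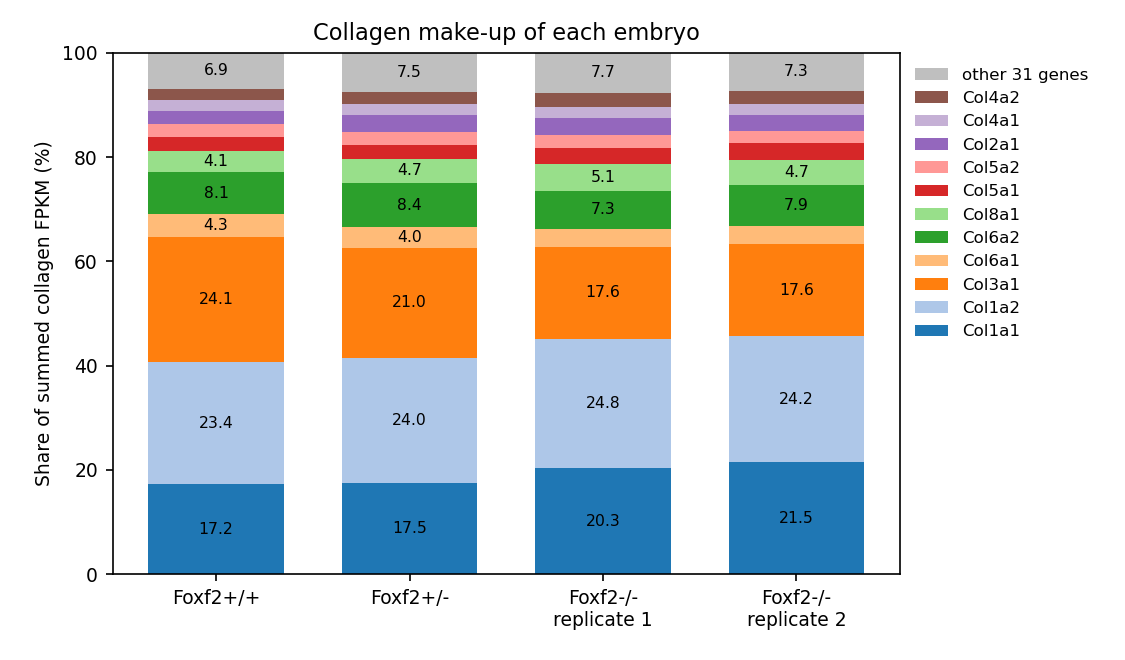
Share of summed collagen FPKM (%, vertical axis) of 11 genes and of the other 31 collagen genes together in each embryo (bars). Col3a1 is 24.1% and 21.0% in the controls against 17.6% in both mutants, and Col1a1 is 17.2% and 17.5% against 20.3% and 21.5%.

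No collagen gene passed limma, a moderated linear model fitted here on log2(FPKM + 0.1) over all 11154 tested genes, at a Benjamini-Hochberg adjusted p under 0.05. Across all genes 7 did (0.0628%), among them Foxf2 and Fgf18. At an unadjusted p under 0.05 there were 6 of 26 collagens (Col12a1, Col14a1, Col25a1, Col3a1, Col6a1 and Col9a2), against 13.0% of all genes. By a fold criterion without a test, in which the mutant mean must differ by more than 1.5-fold from each control in the same direction, 2 of 26 collagens were lower (Col25a1 and Col9a2), against 0.681% of all genes. None was higher, against 0.717% of all genes. The median log2 fold change was -0.02 over the 26 collagens and -0.08 over all tested genes, with 11 collagens above 0 and 15 below. Dividing each embryo by its median ratio to the others, which brings the median of all genes to 0.00, added Col12a1 to the genes past the fold criterion. Without mutant replicate 1 no collagen met it, and without the heterozygote Col12a1 and Col14a1 met it as higher and Col3a1 as lower, beside Col25a1 and Col9a2. Leaving out the heterozygote loosened the criterion for all genes, of which 214 were then higher and 358 lower, against 80 and 76.

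Both mutants lay above both controls for 3 of 26 collagens (Col12a1, Col14a1 and Col8a2), against 9.89% of all genes, and below both for 5 (Col25a1, Col3a1, Col5a2, Col6a1 and Col9a2), against 35.8%. Under median-ratio scaling these counts became 11 above and 4 below, against 21.0% and 21.5% of all genes. Col5a2 no longer separated the groups, while Col12a1, Col14a1 and Col8a2 stayed above, and Col25a1, Col3a1, Col6a1 and Col9a2 stayed below. The wild type had the highest value of the 4 for 12 of 26 collagens, against 44.8% of all genes. The median collagen was 0.21 higher on the log2 scale in the wild type than in the heterozygote, against 0.05 for all genes, so the controls differed from each other in collagen level. The SD of log2 differences over the 26 collagens was 0.208 between the controls and 0.172 between the mutants, but 0.292 to 0.457 between a mutant and a control. Over all tested genes it was 0.286 and 0.278 within the groups and 0.284 to 0.368 between them. These SDs are taken over genes and not over embryos. Those of the collagens include the genes with the largest fitted differences (Col25a1, Col9a2, Col12a1 and Col14a1) and were not computed without them.

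**Figure D3:**
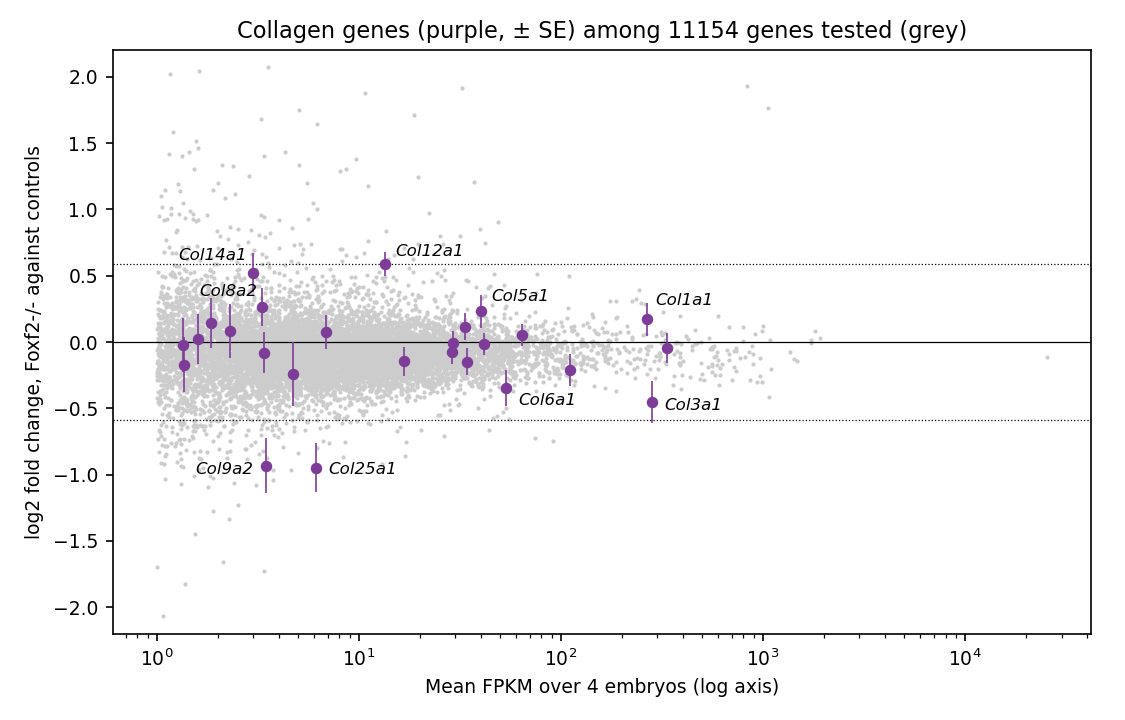
Fitted log2 fold change of Foxf2-/- against control embryos (vertical axis) by mean FPKM over the 4 embryos (log axis) for all tested genes (grey) and the 26 collagens (purple, bars ± SE); dotted lines mark 1.5-fold, and 14 genes lie outside the vertical range. Most collagens sit within the body of the genes, with Col25a1 and Col9a2 below it and Col12a1 and Col14a1 near or at its upper edge.

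Among the bulk fibrillar genes, Col3a1 had lower values in both mutants and the type I genes did not. Col3a1 (chromosome 1, 45368383 to 45406551, mm9), the single chain of type III collagen, was 381 FPKM in the wild type, 272 in the heterozygote, and 222 and 249 in the mutants. Both mutant values were the lower ones, and the mean of these embryos was 0.618 of the Foxf2+/+ level and 0.864 of the Foxf2+/- level (log2 fold change -0.45, SE 0.158, limma adjusted p = 0.335). The controls themselves differed more from each other than the heterozygote did from mutant replicate 2. Col1a1, which encodes the chain present in 2 copies in type I collagen, was 272 and 227 FPKM in the controls against 257 and 304 in the mutants (log2 fold change 0.17, SE 0.126, limma adjusted p = 0.598). Its partner Col1a2 was 369.5 and 310.3 in the controls against 314 and 343 (log2 fold change -0.04, SE 0.114, limma adjusted p = 0.902), and both genes overlapped between the groups.

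Ratios within an embryo do not depend on the scaling between libraries. FPKM is per length but does not correct for other differences between genes, such as GC content, so a ratio is best compared between embryos. The ratio of Col3a1 to Col1a1, chosen after the values were seen, was 1.40 in the wild type and 1.20 in the heterozygote, but 0.865 and 0.818 in the mutants. Col3a1 thus had the higher FPKM in both controls and Col1a1 in both mutants. Ratios that do not overlap between the groups were common, at 63.7% of all 325 pairs of tested collagens. The collagens themselves set this share. It was not computed for pairs of other genes, so whether it is particular to collagens was not tested. The ratio of Col1a1 to Col1a2 was 0.736 and 0.732 in the controls against 0.819 and 0.887 in the mutants. A type I trimer holds more of the Col1a1 chain than of Col1a2. Col1a2 had the higher FPKM in every embryo, but FPKM of different genes cannot be set against the number of chains in the protein.

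Transcript GC content differed between these genes, at 58.9% for Col1a1, 55.7% for Col1a2 and 52.5% for Col3a1, and the embryos differed along GC content. The median log2 difference between mutant replicates 1 and 2 went from -0.02 for genes under 45% GC to -0.22 for genes over 60%, while the median log2 fold change of the groups ranged from -0.10 to -0.05 over the GC classes. After GC content and length were regressed out of each embryo, a setting added after seeing the data, the ratio of Col3a1 to Col1a1 was 1.39 and 1.19 in the controls against 0.848 and 0.851. That of Col1a1 to Col1a2 was 0.737 in both controls against 0.826 and 0.870. The median log2 fold change of the groups differed little between the GC classes, so this regression could remove little of a group difference. The part of GC content in these ratios was not tested. The regression was fitted to each embryo's deviation from the mean of a gene, so it did not adjust differences in level between genes.

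**Figure D4:**
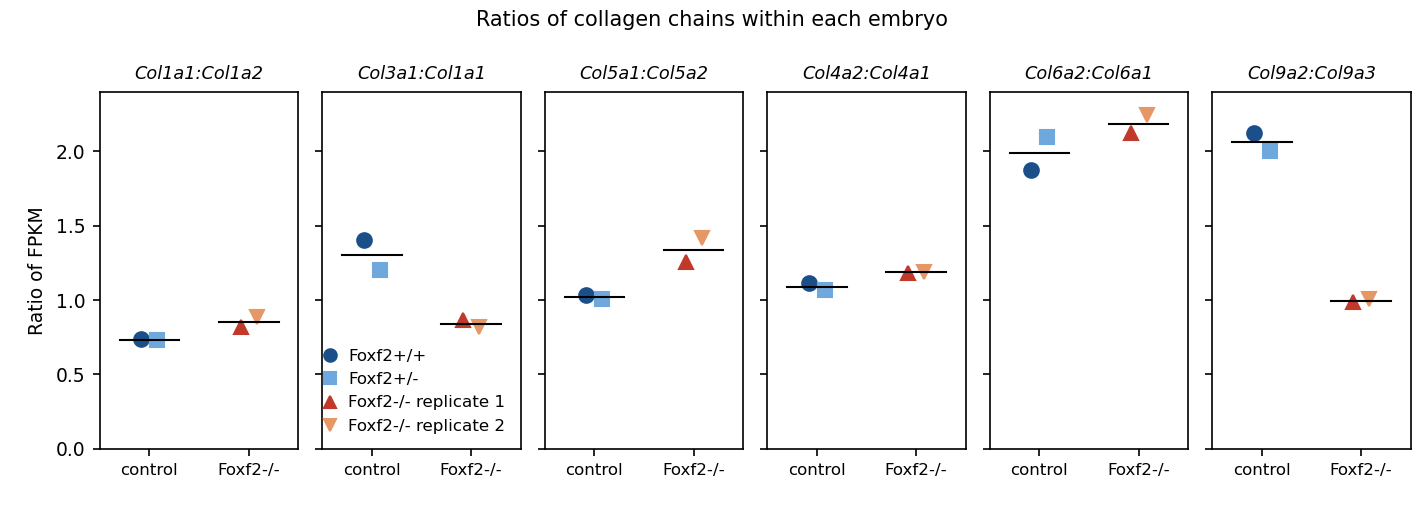
Ratios of FPKM between pairs of collagen genes within each embryo (vertical axis from 0; points are embryos, bars are group means, n = 2). The ratio of Col3a1 to Col1a1 is above 1 in both controls and below 1 in both mutants, and that of Col9a2 to Col9a3 is near 2 in the controls and near 1 in the mutants. Only ratios that did not overlap between the groups are shown. A lack of overlap held for 63.7% of all 325 pairs of tested collagens, and pairs of other genes were not computed.

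The regulatory fibrillar chains were far below types I and III. Col5a1, a chain of type V collagen that nucleates fibrils, was 40.6 and 33.6 FPKM in the controls against 40.1 and 46.9 in the mutants (log2 fold change 0.23, SE 0.123, limma adjusted p = 0.471). Its partner Col5a2 was 39.1 and 33.3 against 32.0 and 33.0 (log2 fold change -0.15, SE 0.102, limma adjusted p = 0.573). The ratio of Col5a1 to Col5a2 was 1.04 and 1.01 in the controls against 1.25 and 1.42 in the mutants, and after the regression on GC content and length 1.05 and 1.03 against 1.28 and 1.36. Col11a1, which pairs with type V chains outside cartilage, was 19.1 and 16.1 FPKM in the controls against 16.4 and 15.3 in the mutants, and its ratio to Col5a1 was 0.472 and 0.478 against 0.409 and 0.326. Within types V and XI, Col5a1 therefore held a larger part in both mutants, although neither gene passed the test. Col27a1 and Col24a1, fibrillar genes of cartilage and bone, ranged from 2.92 to 7.78 FPKM over the embryos and overlapped between the groups, and Col11a2 and Col5a3 stayed under 0.3 FPKM.

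Col2a1, the major collagen of cartilage, was among the 10 most abundant collagens, at 41.9 and 41.5 FPKM in the controls against 40.1 and 42.4 in the mutants. Its groups overlapped (log2 fold change -0.02, SE 0.083, limma adjusted p = 0.951). The cartilage proteoglycan Acan was at or below 0.1 FPKM in every embryo, the hypertrophic cartilage gene Col10a1 was 0.160 to 0.296, and the summed chondrocyte markers were 17.1 to 21.0, most of it Sox9, a transcription factor of cartilage and its precursors, at 13.2 to 17.2. Col2a1 transcripts of 4929 and 5133 bases were annotated, and the longer one holds an extra exon of 204 bases on the minus strand of chromosome 15. This exon encodes a cysteine-rich stretch of the amino propeptide and is printed with its cysteine codons in capitals, since its length is the whole difference in length between the transcripts.
Col2a1 alternative exon, chr15:97830834-97831037, minus strand, mm9: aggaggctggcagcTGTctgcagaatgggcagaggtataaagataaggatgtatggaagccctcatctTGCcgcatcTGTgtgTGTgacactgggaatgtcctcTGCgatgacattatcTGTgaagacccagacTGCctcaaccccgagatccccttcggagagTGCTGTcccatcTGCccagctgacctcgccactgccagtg
The exon holds 10 cysteine codons. Inclusion of this exon is known from precursor cells and its skipping from differentiated cartilage. The longer transcript was estimated at 2.72% of Col2a1 FPKM in the wild type, 4.73% in the heterozygote, and 4.46% and 7.03% in the mutants. The groups overlapped, and the form without the exon made up over 90% in all 4. The estimate rests on reads that touch this exon, and their number is not known from the tables.

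The beaded filament genes Col6a1 and Col6a2, which lie 85387 bases apart on chromosome 10, had lower means in the mutants without passing the test. Col6a1 was 68.0 and 51.8 FPKM in the controls against 43.7 and 49.8 in the mutants (log2 fold change -0.35, SE 0.139, limma adjusted p = 0.356), and the groups did not overlap. Col6a2 was 128 and 109 against 92.7 and 112 (log2 fold change -0.21, SE 0.123, limma adjusted p = 0.510), and mutant replicate 2 lay between the controls. Their ratio, Col6a2 to Col6a1, was 1.88 and 2.10 in the controls against 2.12 and 2.24 in the mutants, so the lowest mutant value stood just above the Foxf2+/- value. Type VI collagen needs 1 more chain beside these, and of the chains that can fill that place Col6a6 was 1.61 to 2.12 FPKM, Col6a4 was 0.503 to 1.05, and Col6a5 stayed under 0.03.

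Basement membrane collagen was almost wholly Col4a1 and Col4a2, the chains that together make the most widespread type IV trimer. Col4a1 was 31.1 and 27.9 FPKM in the controls against 28.3 and 30.1 in the mutants, and Col4a2 was 34.5 and 29.7 against 33.6 and 35.8. Neither separated the groups (log2 fold changes -0.01 and 0.12, limma adjusted p = 0.975 and 0.666). The genes stand head to head on chromosome 8, with 2 bases between their annotated starts in mm9, and their RefSeq promoter windows (250 bases before to 50 after the start, GRCm38.p6) share 78 bases. Col4a2 exceeded Col4a1 in every embryo, by a ratio of 1.11 and 1.07 in the controls and 1.19 in both mutants. The other head-to-head pairs were far lower: Col4a5 was 1.49 to 1.70 FPKM and Col4a6 0.188 to 0.311, and Col4a3 and Col4a4 were at or under 0.0394.

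Of the 6 tested FACIT collagens, Col12a1 and Col14a1 lay above both controls in both mutants (9.89% of all genes did) and Col9a2 below (35.8%). Col12a1 (chromosome 9, 79446798 to 79566485, mm9), the largest FACIT chain and a component of dense connective tissue, was 10.6 FPKM in the wild type, 11.0 in the heterozygote, and 16.5 and 16.0 in the mutants. Both controls lay close together and both mutants about 1.5 times higher (1.53-fold over Foxf2+/+ and 1.47-fold over Foxf2+/-). It had the lowest p of the 26 collagens, which did not hold after adjustment over all genes (log2 fold change 0.59, SE 0.091, limma adjusted p = 0.109). Col14a1, a related chain that also binds fibril surfaces, was 2.31 and 2.57 FPKM in the controls against 3.36 and 3.75 in the mutants (log2 fold change 0.52, SE 0.145, limma adjusted p = 0.275). The ratio of Col12a1 to Col14a1 stayed between 4.26 and 4.92 and overlapped between the groups.

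Type IX collagen, a FACIT of cartilage fibrils, is assembled from the products of Col9a1, Col9a2 and Col9a3, of which only Col9a2 separated the groups. Col9a2 (chromosome 4, 120712171 to 120727930, mm9) was 5.32 FPKM in the wild type, 3.86 in the heterozygote, and 2.00 and 2.70 in the mutants. On the log2(FPKM + 0.1) scale the wild type was 2.23-fold and the heterozygote 1.63-fold the mutant mean (log2 fold change -0.93, SE 0.205, limma adjusted p = 0.195). Col9a3 was 2.51 and 1.93 against 2.03 and 2.69 FPKM, and Col9a1 was 1.30 and 1.40 against 1.28 and 1.38, so both overlapped between the groups (limma adjusted p = 0.895 and 0.977). The ratio of Col9a2 to Col9a3 was 2.12 and 2.00 in the controls against 0.985 and 1.004 in the mutants. After the regression on GC content and length it was 2.12 and 2.02 against 1.003 and 0.979. The ratio of Col9a1 to Col9a3 overlapped.

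The remaining FACIT genes were low or variable. Col16a1 was 6.20 and 4.03 FPKM in the controls against 3.49 and 5.08 in the mutants, and the replicates of each group differed more than the group means. Col20a1 was past the fold criterion but below the level for testing, at 0.0833 and 0.0487 FPKM in the controls against 0.219 and 0.177 in the mutants. Col22a1, also untested, was 0.06997 and 0.08997 against 0.0345 and 0.0153, and Col19a1 stayed under 0.1 FPKM.

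Transmembrane collagens were led by Col23a1, at 30.9 and 28.5 FPKM in the controls against 27.5 and 28.7 in the mutants, which overlapped (limma adjusted p = 0.746). Col25a1 (chromosome 3, 129883796 to 130299335, mm9), a membrane collagen best known from neurons and from muscle innervation, was 9.35 FPKM in the wild type, 6.91 in the heterozygote, and 3.62 and 4.70 in the mutants. Every mutant value was below both controls, and the Foxf2+/- value lay between them and the Foxf2+/+ value (log2 fold change -0.95, SE 0.182, limma adjusted p = 0.174). The heterozygote was 1.66-fold the mutant mean on the log2(FPKM + 0.1) scale. Summed muscle markers were 2.33 and 2.45 FPKM in the controls against 1.33 and 1.28 in the mutants. Most of this sum was Tnnt1 (1.31 and 1.58 against 0.831 and 0.752), while Myog and Myf6 were at 0 in every embryo. Summed Schwann cell and neuron markers were 4.60 and 7.88 against 10.8 and 7.52, of which Fabp7 alone was 4.58 in mutant replicate 1. The part of these cells in the Col25a1 values was not tested. The longer of the annotated Col25a1 transcripts, of 3254 bases, made up 85.6% and 80.8% in the controls and 87.5% and 84.4% in the mutants, so the share of each transcript overlapped between the groups. Col13a1 and Col17a1 stayed under 0.4 FPKM.

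Short-chain collagen was almost entirely Col8a1, a chain of lattices in vessel walls and the eye that also occurs in embryonic mesenchyme. It was 65.2 and 61.3 FPKM in the controls against 64.2 and 66.9 in the mutants, the fifth highest collagen mean, and overlapped between the groups (log2 fold change 0.05, SE 0.084, limma adjusted p = 0.830). Col8a2 was 3.14 and 2.84 against 3.37 and 3.86, and the ratio of Col8a1 to Col8a2 was 20.8 and 21.6 against 19.1 and 17.3. Of the 15 chain ratios computed, 11 did not overlap between the groups, against 63.7% of all 325 pairs of tested collagens. The share over pairs of all tested genes was not computed. Col7a1, the anchoring fibril chain, was 1.20 to 1.56 FPKM and overlapped. Emid2 (Col26a1), outside the rule, was 63.4 and 65.8 in the controls against 70.0 and 78.0 in the mutants (limma adjusted p = 0.420).

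RefSeq promoter windows (GRCm38.p6) were present for 34 of the 42 collagen genes. The forkhead core letters TAAACA, searched on both strands as TAAACA and TGTTTA, occurred in 6 of the 37 windows of these genes (16.2%; 1 each for Col11a2, Col13a1, Col24a1, Col3a1, Col6a1 and Col6a4) and in 13.4% of all 32851 promoter windows. The window of Col3a1 is printed with the match in capitals, since Col3a1 is the most abundant gene among those with lower values in both mutants.
Col3a1 promoter, chr1:45311288-45311587, plus strand, GRCm38.p6: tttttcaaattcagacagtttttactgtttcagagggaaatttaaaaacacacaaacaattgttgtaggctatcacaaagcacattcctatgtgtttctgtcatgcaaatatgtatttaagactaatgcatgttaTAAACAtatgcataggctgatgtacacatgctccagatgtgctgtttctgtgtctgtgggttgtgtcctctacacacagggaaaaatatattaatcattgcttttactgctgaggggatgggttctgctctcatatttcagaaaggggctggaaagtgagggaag
The windows of Col9a2 and Col25a1 do not hold these letters. A match describes the sequence and says nothing of binding.

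Genes that modify, fold, secrete, cleave, cross-link or bind collagen were compared as a list of 45, of which 36 were tested. None passed limma at an adjusted p under 0.05 and none of the 36 passed the fold criterion, while 5 had an unadjusted p under 0.05 (P4ha2, Plod1, Tram2, Bmp1 and Lox), or 5 of 36 against 13.0% of all genes. Both mutants lay above both controls for 3 of the 36, against 9.89% of all genes, and below both for 14, against 35.8%, and the median log2 fold change was -0.05, against -0.08 over all genes. The most abundant were Serpinh1, the collagen-specific chaperone, and P4hb, a subunit of prolyl 4-hydroxylase. Serpinh1 was 110.3 and 106 FPKM in the controls against 113 and 120.4 in the mutants, and P4hb was 106 and 98.7 against 93.5 and 106. Itgb1, the integrin subunit shared by collagen receptors, was 41.5 and 38.9 against 38.0 and 40.5, Pcolce, which enhances propeptide cleavage, was 39.9 and 39.0 against 35.3 and 41.7, and Ppib, a prolyl isomerase, was 42.1 and 41.2 against 34.9 and 39.0.

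Under median-ratio scaling 8 of the 36 lay above and 10 below, against 21.0% and 21.5% of all genes. Of 14 prolyl and lysyl modification genes, 7 lay below both controls in both mutants (35.8% of all genes) and none above (9.89%), with a median log2 fold change of -0.12, and under median-ratio scaling 6 lay below and 2 above. Among them P4ha2, a catalytic subunit of prolyl 4-hydroxylase, was 11.4 and 9.41 FPKM against 7.72 and 8.30 (log2 fold change -0.37, SE 0.122, limma adjusted p = 0.317), and the lysyl hydroxylase Plod1 was 14.6 and 11.6 against 10.1 and 10.6 (limma adjusted p = 0.351). Bmp1, the proteinase that removes the carboxy propeptide, was 29.0 and 24.8 against 20.4 and 23.7 (limma adjusted p = 0.361). Lox, which cross-links collagen and elastin, had the largest fitted difference of the 36 genes, at 19.5 and 19.0 FPKM in the controls against 25.1 and 28.1 in the mutants (log2 fold change 0.46, SE 0.094, limma adjusted p = 0.177). Of the other tested genes for cross-linking, Loxl1 and Loxl2 overlapped between the groups, and Loxl3 was lower in both mutants, at 5.64 and 5.26 against 4.22 and 5.22 (limma adjusted p = 0.554). Under median-ratio scaling Loxl3 overlapped and Loxl2 lay above both controls. Itga2, a collagen-binding integrin subunit below the level for testing, was past the fold criterion at 0.653 and 0.567 FPKM against 0.406 and 0.285.

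**Figure D5:**
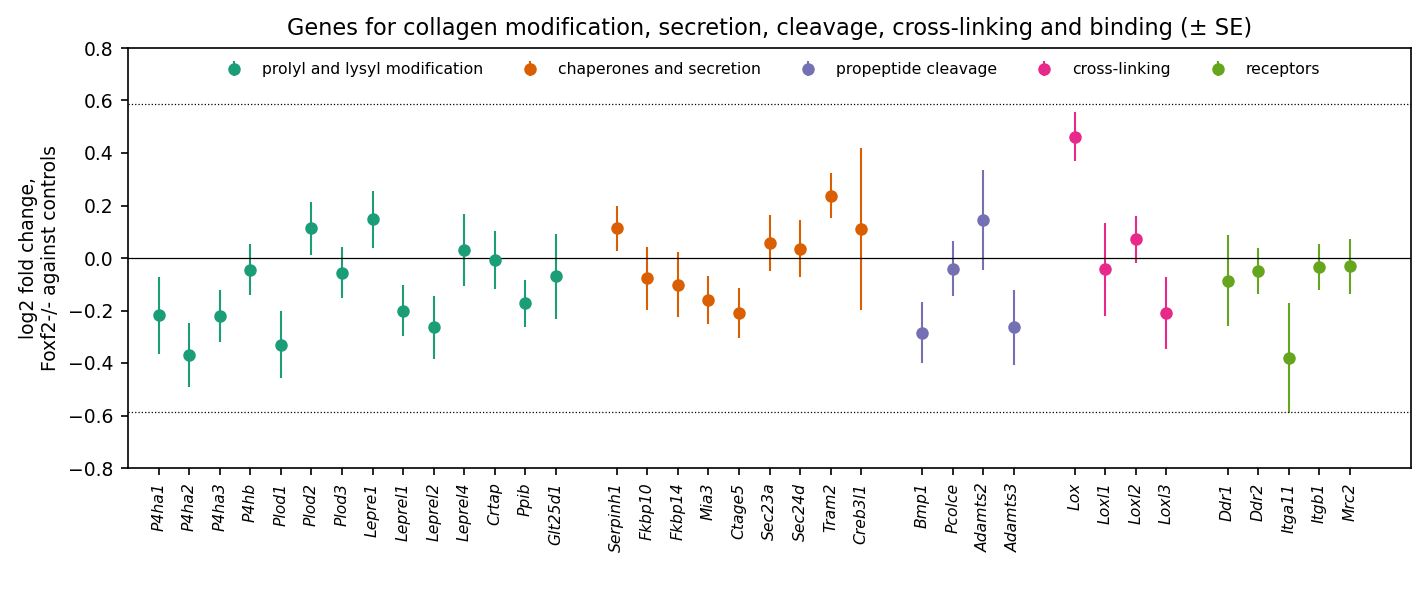
Fitted log2 fold change (Foxf2-/- against controls, ± SE, n = 2 embryos each) of the 36 tested genes of collagen modification, secretion, cleavage, cross-linking and binding; dotted lines mark 1.5-fold. All 36 lie within the dotted lines, with Lox highest at 0.46 and Itga11 lowest at -0.38.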

How the data were processed

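RNA-seq of RFP-positive palatal mesenchyme from 4 E13.5 embryos (2 per group) was analysed. Per the labels and methods, libraries were made with Nextera and reads were aligned to mm9 with Tophat and Bowtie 0.12.7 (submitters' processing notes). The authors deposited FPKM per RefSeq transcript, 1 table of 28107 entries per embryo, in the form Cufflinks writes, with the mean read coverage of each transcript beside it as the authors deposited it, which gave only relative depth here. The program's version and the read length are not given in the sources used here. FPKM holds no read counts, so no counting interval is given, and estimates that split reads between overlapping transcripts are uncertain at low levels.

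Entries of at least 200 bases were summed by symbol (21352 genes, after 10 genes with a failed estimate were left out). Genes with a mean of at least 1 FPKM over all embryos were tested. log2(FPKM + 0.1), which understates changes of low genes, was fitted with limma 3.58.1 (variance trend) in R 4.3.3, with Benjamini-Hochberg adjustment. The fold criterion was 1.5. Python 3.11.15, pandas 2.3.3, numpy 2.4.6, scipy 1.17.1 and matplotlib 3.10.9 were used. Values per embryo were given for the 10 most abundant collagens, those past the fold criterion and chains in ratios, and for the 5 most abundant pathway genes; Foxf2 checked the labels, and other genes were named after their values were seen. Exons were read from NCBIM37 with GENCODE M1. Members and lists were chosen with earlier results of these data known. Of the alternatives, 18 were planned and 1, the regression on GC content and length, was added after seeing the data.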

Additional observations from a re-analysis of the deposited data

How the results depend on the processing

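No collagen gene passed limma under any of the 16 alternatives refitted, and the lowest adjusted p of a collagen ranged from 0.0598 (FPKM of at least 5 in 1 embryo or more) to 0.502 (without the Foxf2+/+ embryo). The fitted differences of Col3a1 (-0.69 to -0.21), Col6a1 (-0.54 to -0.15), Col12a1 (0.55 to 0.67), Col14a1 (0.40 to 0.63), Col25a1 (-1.19 to -0.73) and Col9a2 (-1.18 to -0.71) kept their sign. The ends 0.63, -1.19 and -1.18 came from the fit with the number of null alleles as a linear term. That fit gives a trend over null alleles and not a difference between mutants and controls.

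The 2 collagens past the fold criterion became 1 with a pseudocount of 1 (Col25a1) and 0 at a threshold of 2. Leaving out 1 embryo gave 0 to 5: none without Foxf2-/- replicate 1, and Col12a1, Col14a1, Col25a1, Col3a1 and Col9a2 without the Foxf2+/- embryo. Over all genes, limma called 7 as reported, 13 with a pseudocount of 1, 0 without the filter, 27 with short entries included, 1 with the highest entry of each symbol, 12 with upper-quartile scaling, 0 with no variance trend, 20 with a mean for each genotype, 15 with the number of null alleles as a linear term and 4 after the regression on GC content and length. Leaving out 1 embryo gave 7 to 38. Where 1 embryo is left in a group, it is assumed to vary like the others. The fold criterion took 156 genes as reported (80 higher and 76 lower), 67 with a pseudocount of 1, 49 with an FPKM of at least 5 in 1 embryo, 639 without the filter, 291 with short entries, 278 with the highest entry, 36 at a threshold of 2, and 213 to 572 with 1 embryo left out. Median-ratio scaling took 92 higher and 50 lower. The cause of these shifts was not tested.

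No paired analysis was possible because the labels number only the Foxf2-/- embryos. Each control genotype is 1 embryo, and low collagens rest on few reads of unknown number.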

Other observations

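Col3a1 and Col5a2 lie tail to tail on chromosome 1, 24624 bases apart. Both genes lay below both controls in both mutants, as did 35.8% of all tested genes. For Col5a2 mutant replicate 2, at 33.02 FPKM, stood just under the Foxf2+/- value of 33.25, and the separation was lost under median-ratio scaling. Their ratio, Col5a2 to Col3a1, was 0.103 and 0.122 in the controls against 0.144 and 0.133 in the mutants, so the difference was larger for Col3a1. Col9a1 and Col19a1 lie tail to tail 4944 bases apart, at 1.28 to 1.40 FPKM and at most 0.0281 FPKM.

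Of the collagens below the level for testing, Col18a1, whose protein carries the endostatin domain, was 0.240 FPKM in the wild type, 0.572 in the heterozygote, and 0.708 and 0.827 in the mutants. Summed endothelial markers were 0.480, 0.936, 1.02 and 1.87 FPKM in the same embryos, and their part in the Col18a1 values was not tested. The longer Col18a1 transcript was estimated at 99.3% of the gene's FPKM in the wild type and at no more than 8.06% in the others, at levels where the tables do not tell how many reads decide between the entries.

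Summed osteoblast markers were 44.2 and 40.3 FPKM in the controls against 40.3 and 40.8 in the mutants, summed tendon markers were 16.8 and 14.1 against 12.6 and 13.6, summed pericyte markers were 15.7 and 13.7 against 14.4 and 16.9, and summed macrophage markers were 15.2 and 22.8 against 16.4 and 24.0. Their part in the collagen values was not tested. Single markers outside the mesenchyme list that reached 5 FPKM were Runx2 (24.8 to 27.6), Alpl (9.91 to 15.9), Mkx (7.69 to 12.2), Notch3 (6.00 to 7.17), C1qb (6.16 to 9.87), Tyrobp (2.54 to 5.45), Sox9 and 6 globin genes, of which Hba-x was the highest (125 to 1877).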
